A study of Mus musculus with 12 samples.

Results

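The 35 genes described here encode the machinery that copies chromosomes and divides cells. The list was chosen by gene symbol, and all 35 symbols were found among 22273 deposited entries of gastrocnemius, 22252 of liver and 22252 of gonadal white adipose tissue (WAT). By role, 24 members act in mitosis and 11 in DNA replication or deoxynucleotide supply. The mitosis members were placed in 5 groups, namely 6 of mitotic entry, 4 of the spindle assembly checkpoint and the anaphase-promoting complex (APC/C), 4 of the Aurora kinases and the chromosomal passenger complex, 8 of kinesins, kinetochore and spindle midzone, and 2 of chromosome structure.

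Transcripts were measured in male C57BL/6J mice that all carried a floxed exon 3 of the glucocorticoid receptor gene Nr3c1. GRf/f mice had no Cre, and GRmKO mice carried Acta1-Cre, which acts in myofibres, so that satellite cells and the other cells of muscle, as well as liver and WAT, were not targeted. From 8 weeks of age the mice drank 1% ethanol (vehicle) or 1% ethanol with 100 µg/mL corticosterone (CORT, the main glucocorticoid of rodents) for 4 weeks. Each of the 12 libraries came from pooled RNA of 3 mice, with 1 library for each tissue, genotype and treatment, so no group had a replicate and no p-value is given.

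Cells that leave rest first make deoxynucleotides and load the MCM helicase on origins of replication, and later accumulate cyclins A and B with the kinase Cdk1, which drive entry into mitosis. The transcription factors of the E2F family switch on the replication genes, and the MuvB complex with B-Myb and Foxm1 switches on the mitotic genes later in the cycle. Mature myofibres, hepatocytes and adipocytes rarely divide, so in these tissues such transcripts can also come from macrophages, endothelial cells, fibroblasts and progenitors. In bulk RNA, fewer cells of a type and less RNA per cell cannot be told apart.

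The total of a library ranged from 19394572 to 20940660 expected counts. Whether an entry holds the reads of the whole gene or of the 1 transcript whose identifier it bears is not settled by the sources used here, and values per kilobase and remarks on transcripts take it as that transcript. Levels are given as CPM, the counts of an entry scaled to this total, and an entry at 0 may have held up to 3 counts, or 0.143 to 0.155 CPM. The members together had 1437 to 5681 counts in a library, and 0 to 4 members stood at 0. Nr3c1 in gastrocnemius was at 113 CPM in vehicle-treated GRf/f, 90.4 in CORT-treated GRf/f, 46.4 in vehicle-treated GRmKO and 35.5 in CORT-treated GRmKO mice. In GRmKO mice it was thus at 41.2% and 39.2% of GRf/f, against 105% and 110% in liver and 102% and 81.5% in WAT. The labelled tissues carried their own markers. The summed level of 5 myofibre markers was at least 69300 CPM in each gastrocnemius library, that of the 4 hepatocyte markers found was at least 62500 CPM in each liver library, and that of 5 adipocyte markers was at least 17500 CPM in each WAT library. The hepatocyte markers also reached 67.9 CPM in the vehicle-treated and 224 CPM in the CORT-treated GRmKO gastrocnemius, against 5.24 and 8.14 CPM in the GRf/f libraries.

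The promoters of 6 members are shown because they belong to those that passed the fold rule in the most comparisons and hold motifs that are common in promoters of cell cycle genes. The sequences are from RefSeq on GRCm38.p6, cover the 150 bases before the annotated start, run 5′ to 3′ on the strand of the gene, and have matches to CCAAT, the box bound by the factor NF-Y, and to TTTGAA, the cell cycle genes homology region (CHR) read by MuvB, in capitals on either strand (ATTGG and TTCAAA in reverse). The stretch of Mki67 lies at chr7:135716380-135716529 (minus strand), Top2a at chr11:99024190-99024339 (minus), Prc1 at chr7:80294301-80294450 (plus), Rrm2 at chr12:24708104-24708253 (plus), Ccnb2 at chr9:70421555-70421704 (minus) and Cdk1 at chr10:69352913-69353062 (minus).
Mki67: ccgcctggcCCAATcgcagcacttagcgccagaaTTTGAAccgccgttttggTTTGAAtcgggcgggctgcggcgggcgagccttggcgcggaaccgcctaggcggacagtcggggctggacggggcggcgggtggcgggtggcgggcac
Top2a: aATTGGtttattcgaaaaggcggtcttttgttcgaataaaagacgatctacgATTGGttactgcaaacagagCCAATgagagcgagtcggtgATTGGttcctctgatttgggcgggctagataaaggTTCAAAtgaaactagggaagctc
Prc1: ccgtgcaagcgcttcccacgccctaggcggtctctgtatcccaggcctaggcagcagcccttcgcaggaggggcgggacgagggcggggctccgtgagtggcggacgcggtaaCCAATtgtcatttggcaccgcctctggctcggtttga
Rrm2: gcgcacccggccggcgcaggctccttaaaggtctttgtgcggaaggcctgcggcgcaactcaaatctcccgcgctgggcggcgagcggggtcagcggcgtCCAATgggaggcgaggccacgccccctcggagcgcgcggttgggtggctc
Ccnb2: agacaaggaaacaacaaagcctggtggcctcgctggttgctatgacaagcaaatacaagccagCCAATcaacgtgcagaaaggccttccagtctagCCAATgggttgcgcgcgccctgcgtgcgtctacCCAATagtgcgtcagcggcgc
Cdk1: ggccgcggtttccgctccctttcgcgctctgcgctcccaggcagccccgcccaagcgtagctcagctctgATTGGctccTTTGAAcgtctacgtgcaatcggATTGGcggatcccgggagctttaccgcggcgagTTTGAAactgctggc

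Promoter entries matched 29 of the 35 symbols, and 250 bases before the start were searched on both strands. CCAAT was found in 26 of the 29 members (89.7%), against 37.5% of 27025 symbols. TTTGAA was found in 10 of 29 (34.5%), against 18.3% of all symbols, and 8 of those 10 were mitosis members. Both motifs stood together in 34.5% of the members and in 7.34% of all symbols. GCGGGAA, the core of an E2F site, was found in 2 of 29 (6.9%), Mcm7 and Rrm1, against 4.38% of all symbols. Neighbouring matches may share an end letter, and a match describes letters only.

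The members were highest in WAT. The deposited entry carried a different transcript between tissues for 7 members, so levels were compared between tissues for the other 28. Their summed level in vehicle-treated GRf/f mice was 224 CPM in WAT, 109 in gastrocnemius and 65.7 in liver, and that of the 17 mitosis members among them was 57.2, 15.6 and 9.57 CPM. With all 35 the sums were 241, 122 and 68.6 CPM, and with all 24 mitosis members 74.6, 28.6 and 12.4 CPM. Of the 28, 25 had their highest level in WAT and 3 in gastrocnemius, where Rrm1, the large subunit of ribonucleotide reductase, stood at 31.4 CPM against 13.7 in WAT and Aurka, a spindle pole kinase, at 6.95 against 3.31. The third, Mcm2, a subunit of the MCM helicase, was at 8.85 CPM in gastrocnemius and 8.57 in WAT, a difference within counting error. Per kilobase of transcript, Pcna, the sliding clamp of DNA polymerases, was the most abundant member in vehicle-treated GRf/f mice of each tissue, with 34.8 CPM per kb in WAT, 13.7 in liver and 12.4 in gastrocnemius.

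**Figure D1:**
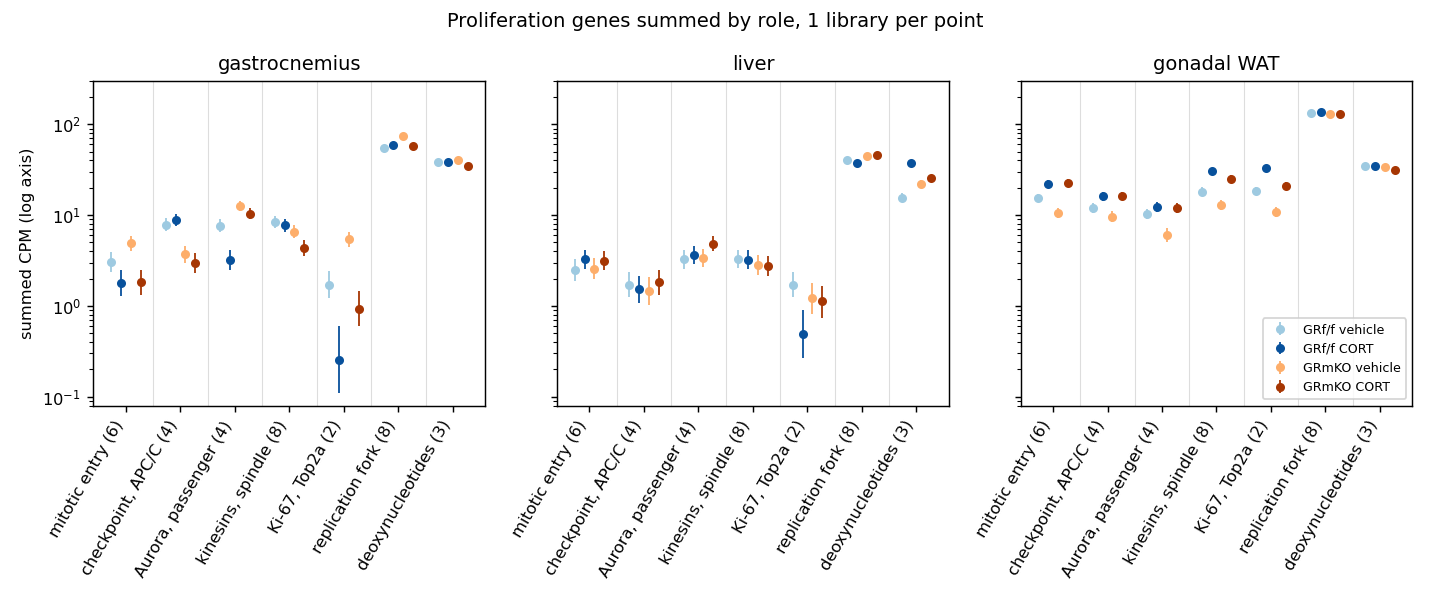
Summed CPM (log axis) of the members of each role in the 12 libraries, with the number of genes in parentheses; each point is 1 library and the bars are 95% counting intervals. In gonadal WAT both CORT libraries lay above their vehicle library in all 5 mitotic groups, while the replication fork sum stayed between 129 and 136 CPM.

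A member was called when its CPM differed at least 2-fold between 2 libraries and the exact 95% binomial interval of the ratio did not reach 1, among entries with a mean of at least 10 counts in the 4 libraries of the tissue. These intervals cover counting error only. The same rule applied to all entries gives the share called in each comparison. The 4 comparisons within a tissue share libraries and are not independent of each other. NOISeq, the method of the study, which sets the difference of 2 libraries against the noise it simulates for them, was run beside the fold rule. It weighs the absolute difference in level as well as the ratio, so entries at a few CPM can hardly be called. Most mitosis members stood at such levels, so a lack of NOISeq calls among them does not show that they did not differ. The shares it called over all entries include abundant ones and are given for reference only.

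In gonadal WAT the mitosis members were higher with CORT in both genotypes, while the replication members as a group were not. The sum of the 24 mitosis members was 74.6 CPM with vehicle and 114 with CORT in GRf/f mice, a log2 ratio of 0.61 (95% interval 0.52 to 0.71, 1.53-fold), and 50 and 96.8 CPM in GRmKO mice, a log2 ratio of 0.95 (0.84 to 1.07, 1.94-fold). The sum of the 11 replication and deoxynucleotide members was 166 and 171 CPM in GRf/f mice (log2 ratio 0.04, interval -0.03 to 0.11) and 163 and 161 CPM in GRmKO mice (log2 ratio -0.02, interval -0.10 to 0.05). Mitosis members therefore made up 31.0% of the members' counts with vehicle and 40% with CORT in GRf/f mice, and 23.4% and 37.6% in GRmKO mice. The log2 ratio of the mitosis sum was larger in GRmKO than in GRf/f mice by 0.34 (0.20 to 0.49), an interval of counting error only, and the vehicle level of GRmKO mice was the lowest of the 4 libraries. Over all entries the median log2 ratio was -0.07 in GRf/f and -0.13 in GRmKO mice.

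All 35 members passed the count filter in WAT. With CORT in GRf/f mice, 5 rose and none fell, against 7.64% of all entries called higher and 11.9% called lower. In GRmKO mice 12 rose and none fell, against 5.81% called higher and 9.19% called lower. All of the risers were mitosis members. NOISeq called 0 of the 35 in either genotype, against 7.34% of the entries it tested in GRf/f and 4.35% in GRmKO mice. At the low levels of most mitosis members this cannot decide whether they differed.

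Among the genes of mitotic entry, Ccnb1 (cyclin B1) was at 1.40 and 2.92 CPM in vehicle- and CORT-treated GRf/f mice and at 0.81 and 3.12 CPM in GRmKO mice, and it rose in both, 2.08-fold and 3.85-fold. Ccnb2 (cyclin B2) was at 1.65 and 2.61 CPM in GRf/f mice and at 1.06 and 3.17 in GRmKO mice, where it rose 2.98-fold. Cdk1, the kinase that both cyclins activate, was at 2.21 and 3.51 CPM in GRf/f mice and at 1.05 and 3.08 in GRmKO mice, where it rose 2.93-fold. For each of the 3 genes the vehicle-treated GRmKO library held the lowest level and both CORT libraries lay above both vehicle libraries. Ccna2 (cyclin A2) was at 5, 6.14, 3.5 and 5.80 CPM in vehicle- and CORT-treated GRf/f and vehicle- and CORT-treated GRmKO mice. Foxm1, the transcription factor of mitotic genes, was at 3.06, 4.12, 2.63 and 4.86 CPM in the same order. Neither passed the fold rule, although in GRmKO mice both intervals lay above 0, with log2 ratios of 0.73 (0.29 to 1.18) and 0.88 (0.38 to 1.40).

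Of the checkpoint and APC/C genes, Bub1, a kinetochore kinase of the spindle checkpoint, was at 0.401 and 1.31 CPM in GRf/f and at 0.253 and 0.742 CPM in GRmKO mice, and rose 3.26-fold and 2.93-fold on few counts (intervals of the log2 ratio 0.52 to 3.06 and 0.02 to 3.37). Cdc20, the activator of APC/C, was at 2 and 1.91 CPM in GRf/f and at 0.911 and 1.78 CPM in GRmKO mice. It was not called with CORT but was 2.20-fold lower in GRmKO than in GRf/f mice under vehicle. Of the passenger complex, Birc5 (survivin) rose in both genotypes, from 1.30 to 2.85 CPM (2.19-fold) and from 0.839 to 1.72 CPM (2.05-fold), and the kinase Aurkb rose in GRmKO mice from 1.42 to 3.37 CPM (2.37-fold), with 2.81 and 4.12 CPM in GRf/f mice. Aurka had 3.31 and 2.50 CPM in GRf/f and 1.92 and 3.61 CPM in GRmKO mice, the only mitosis member besides Cdca8 and Cdc20 with a lower value under CORT in GRf/f mice.

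The kinesins and midzone proteins, which move chromosomes and build the bridge at which daughter cells separate, held 5 of the 12 calls in GRmKO mice. The kinesin Kif11 went from 1.77 to 3.62 CPM (2.04-fold), Kif20a from 1.85 to 4.38 (2.37-fold), Kif23 from 2.23 to 4.79 (2.15-fold) and the spindle protein Nusap1 from 1.87 to 4.19 (2.24-fold). In GRf/f mice these 4 were at 2.80 and 3.58, 3.63 and 6.22, 2.66 and 4.06, and 2.33 and 3.03 CPM, and none was called. Tpx2, which activates Aurora A on spindle microtubules, rose in GRf/f mice from 2.37 to 4.91 CPM (2.07-fold) and was at 2.58 and 3.36 CPM in GRmKO mice. Prc1, which bundles microtubules of the midzone, was at 1.02 and 4.46 CPM in GRf/f mice (4.39-fold) and at 0 and 0.838 CPM in GRmKO mice, an increase of at least 5.52-fold when the 0 is set to the floor of 3 counts. The Prc1 values are uncertain, since the gene has 10 annotated protein-coding transcripts of which the entry names 1, and 25.1% of that transcript lies over exons of Rccd1 on the opposite strand. Of the Kif20a transcript, 26.4% lies in this way over exons of Cdc23, which was at 25.6 to 36.6 CPM in WAT. Of the Ccna2 transcript, 17.2% lies over exons of Exosc9 on the opposite strand.

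Of the chromosome proteins, Mki67, which encodes the proliferation antigen Ki-67, was at 11.7 and 21.2 CPM in vehicle- and CORT-treated GRf/f mice and at 6.68 and 14.6 CPM in GRmKO mice. It rose 2.18-fold in GRmKO mice, and the 1.80-fold difference in GRf/f mice had an interval of 0.62 to 1.09 on the log2 scale. Top2a, the topoisomerase that untangles sister chromatids, was at 6.92, 11.7, 4.15 and 6.43 CPM in the order used above, with log2 ratios for CORT of 0.75 (0.44 to 1.07) in GRf/f and 0.63 (0.22 to 1.05) in GRmKO mice. The promoters of both hold TTTGAA and CCAAT, as printed above.

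The replication members moved in both directions. Rrm1 was at 13.7 and 20.4 CPM in GRf/f mice (log2 ratio 0.57, 0.35 to 0.80) and at 15.5 and 18.3 CPM in GRmKO mice (0.24, 0.02 to 0.47). Rrm2, the small subunit of ribonucleotide reductase, was at 4.31 and 5.22 CPM in GRf/f mice (0.28, -0.15 to 0.71) and at 2.56 and 3.81 CPM in GRmKO mice (0.58, 0.06 to 1.13). Both had intervals above 0 in GRmKO mice, short of the 2-fold rule. Pcna was at 52.8 and 60.3 CPM in GRf/f and at 56.9 and 59.1 CPM in GRmKO mice, and Mcm2 at 8.57, 9.75, 6.38 and 8.41 CPM in the 4 libraries. Tyms, thymidylate synthase, was the only 1 of the 11 with an interval below 0 in both genotypes, with 16.5 and 9.49 CPM in GRf/f mice (log2 ratio -0.80, -1.07 to -0.54) and 16.2 and 8.95 CPM in GRmKO mice (-0.86, -1.13 to -0.59), although neither passed the 2-fold rule. Of the 11, 2 had an interval above 0 and 2 below 0 in GRf/f mice, and 4 above and 2 below in GRmKO mice.

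**Figure D2:**
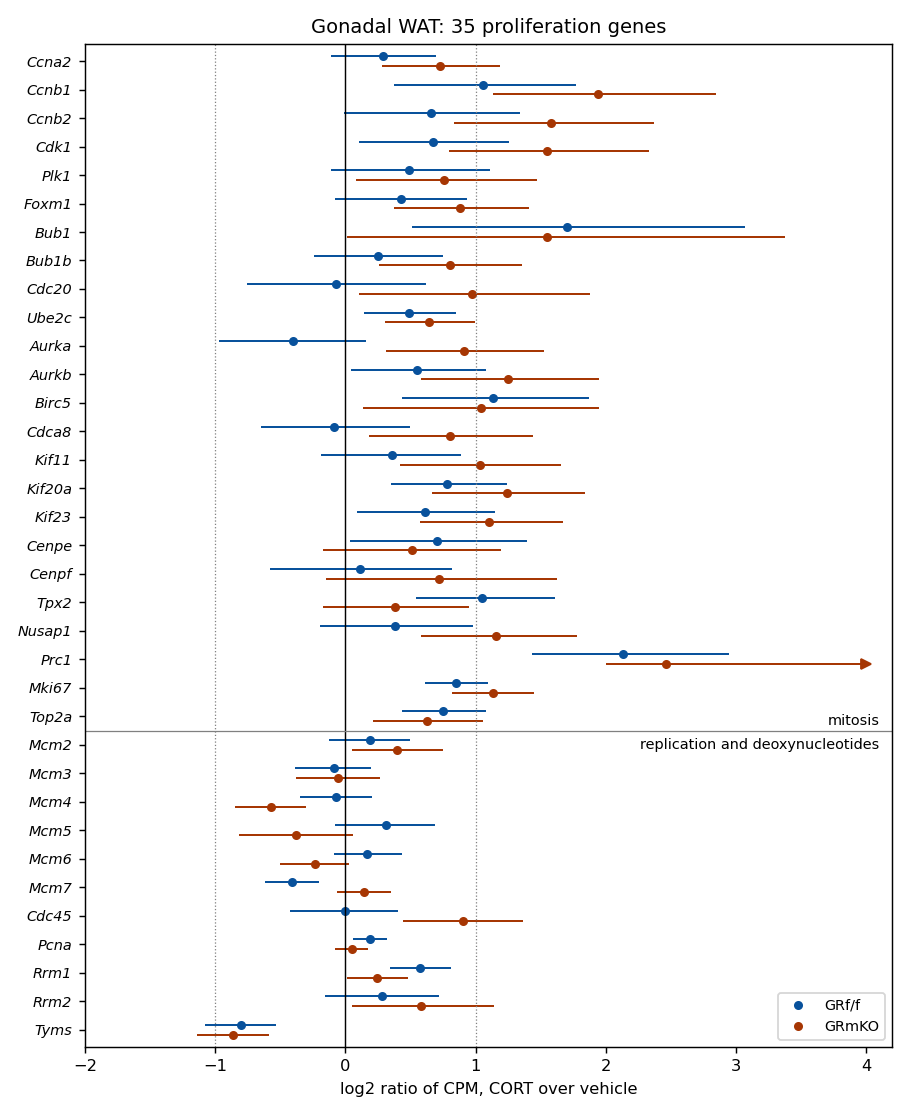
Log2 ratio of CPM (CORT over vehicle) of each of the 35 members in gonadal WAT of GRf/f and GRmKO mice, with 95% counting intervals; dotted lines mark a 2-fold difference and the arrow an interval without an upper end. In GRmKO mice all 24 mitosis members lay above 0, 21 of them with the whole interval, while the 11 replication and deoxynucleotide members lay on both sides.

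Between genotypes in WAT, the mitosis sum was lower in GRmKO than in GRf/f mice under vehicle (log2 ratio -0.58, -0.70 to -0.46) and under CORT (-0.24, -0.33 to -0.15). Cdk1, Cdc20 and Prc1 were called lower under vehicle and none higher, against 3.25% and 2.71% of all entries called lower and higher. Prc1 alone was called lower under CORT, 5.32-fold, and none higher, against 3.19% and 3.58%. The largest ratios upward, neither of them called, were those of the helicase subunit Mcm4 under vehicle (12.1 and 14.7 CPM, log2 ratio 0.28) and of Aurka under CORT (2.5 and 3.61 CPM, log2 ratio 0.53). NOISeq called 0 members in either comparison, against 0.788% and 0.668% of entries. Under CORT, 14 of the 24 mitosis members were lower and 10 higher in GRmKO mice. The median log2 ratio over all entries was -0.04, so most entries were lower too. The groups of mitosis members differed. Mki67 and Top2a together had a log2 ratio of -0.64 (-0.82 to -0.46) and the kinesin group one of -0.30 (-0.47 to -0.12). Mitotic entry was at 0.02 (-0.17 to 0.21), checkpoint and APC/C at 0.01 (-0.22 to 0.24) and the Aurora group at -0.04 (-0.30 to 0.23). The kinesin ratio includes the uncertain Prc1 entry, at 4.46 and 0.838 CPM, and was not computed without it. Kif11, Kif23 and Nusap1 of that group were higher in GRmKO mice and the others lower.

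Other cell types moved with these values in WAT. The summed level of 7 macrophage markers was 565 CPM in vehicle-treated and 1150 in CORT-treated GRf/f mice, and 634 and 1110 CPM in GRmKO mice, higher for 7 of the 7 markers in GRf/f and 6 of 7 in GRmKO mice, with Clec4f, the marker of liver macrophages, at or below 0.0503 CPM. That of 5 endothelial markers was 623 and 231 CPM and 577 and 311 CPM, higher for 0 of 5 in either genotype, that of 5 T cell markers 7.92 and 0.653 and 6.93 and 1.39 CPM, and that of 5 B cell and plasma cell markers 23.2 and 3.97 and 26.8 and 5.60 CPM. Markers of the testis and epididymis, which lie beside this depot, were near 0, with Prm1, Prm2 and Tnp1 at 0 in all 4 libraries. The 5 adipocyte markers summed to 26000 and 17500 CPM in GRf/f and to 27500 and 19300 CPM in GRmKO mice, with 1 of 5 higher in each. The 5 fibroblast and preadipocyte markers summed to 1300 and 1450 CPM in GRf/f mice, with 4 of 5 higher. In GRmKO mice they summed to 1460 and 1540 CPM, with 3 of 5 higher. The 5 neutrophil markers summed to 1.35 and 2.7 CPM and to 1.26 and 1.79 CPM. Macrophage, fibroblast and neutrophil sums were thus higher and adipocyte, endothelial and lymphocyte sums lower with CORT. The part of any of these cells in the result was not tested. The male germ cell sum of 3.44, 5.66, 1.48 and 4.03 CPM was almost wholly Sycp3, at 3.34, 5.31, 1.28 and 3.98 CPM.

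**Figure D3:**
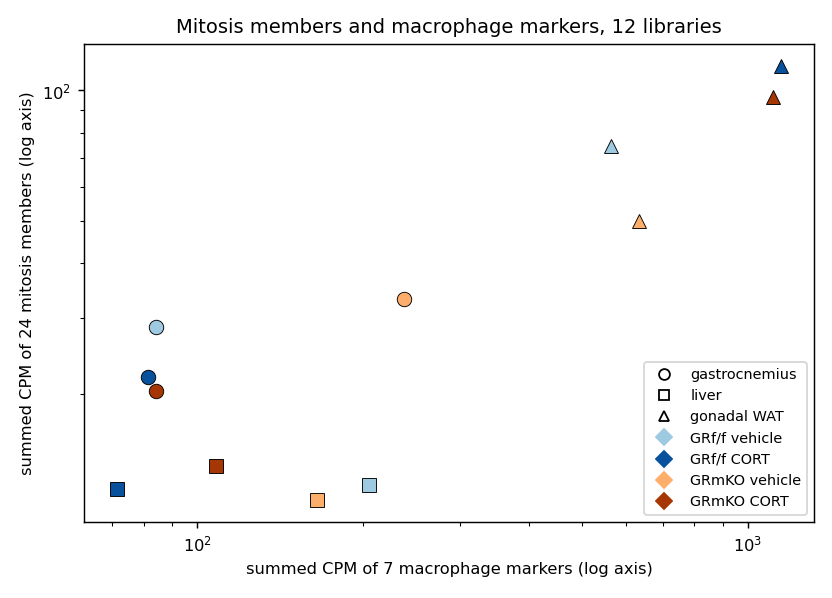
Summed CPM of the 24 mitosis members (7 of which have different transcripts between tissues) against that of 7 macrophage markers in the 12 libraries (both axes log); symbols mark the tissue and colours the group. The WAT libraries with CORT stood highest on both axes, and among gastrocnemius libraries the vehicle-treated GRmKO library did (237 CPM of macrophage markers); the liver libraries showed mitosis sums of 11.4 to 13.7 CPM over macrophage sums of 71.4 to 205 CPM.

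In gastrocnemius the sum of the mitosis members was lower with CORT. The fall was spread over most members in GRmKO mice, and in GRf/f mice its size turned on single genes. The sum was 28.6 CPM with vehicle and 21.9 with CORT in GRf/f mice (log2 ratio -0.38, -0.57 to -0.20) and 33.2 and 20.4 CPM in GRmKO mice (-0.70, -0.88 to -0.52). Of the 13 mitosis members that passed the count filter, 8 were lower and 5 higher with CORT in GRf/f mice, 4 with an interval below 0 and 1 above, and 12 were lower in GRmKO mice, 6 with an interval below 0. Over all entries the median log2 ratio was -0.09 in GRf/f and -0.10 in GRmKO mice, so most entries were lower too. By group, the checkpoint and APC/C genes, mostly Ube2c, had a log2 ratio of 0.18 (-0.15 to 0.50) and the kinesin group -0.11 (-0.43 to 0.22) in GRf/f mice. Sums without Aurka or without Ube2c were chosen after their values were seen. Without Aurka the ratio of the mitosis sum was -0.19 (-0.39 to 0.02) in GRf/f and -1.02 (-1.25 to -0.78) in GRmKO mice. Without Ube2c, whose entry is uncertain in this tissue, it was -0.63 (-0.85 to -0.41) and -0.73 (-0.92 to -0.55). The replication and deoxynucleotide members summed to 93.8 and 97.6 CPM in GRf/f mice (0.06, -0.04 to 0.15) and to 114 and 92.3 CPM in GRmKO mice (-0.30, -0.39 to -0.21). The sum of all 35 was 122 and 119 CPM in GRf/f mice, a log2 ratio of -0.03 that became 0.05 and 0.08 under TMM and median-of-ratios scaling, and 147 and 113 CPM in GRmKO mice (-0.38, -0.46 to -0.30). The highest of the 4 libraries was that of vehicle-treated GRmKO mice. In this tissue those scalings moved the median log2 ratio of all entries for CORT up by 0.09 to 0.15, and in WAT of GRmKO mice by 0.12 and 0.13, and no mitosis sum of the 3 tissues changed its sign under them.

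Of the 35 members 24 passed the filter in gastrocnemius, 13 of them mitosis members. With CORT in GRf/f mice 4 fell and 1 rose, against 8.45% of all entries called lower and 5.47% called higher. In GRmKO mice 8 fell and 0 rose, against 8.8% and 3.21%. NOISeq called 0 members in both, against 3.54% and 2.01% of entries.

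Mki67 and Top2a showed the widest span. Mki67 was at 0.954 CPM in vehicle-treated and 0.206 in CORT-treated GRf/f mice and at 3.71 and 0.591 CPM in GRmKO mice, and fell 4.64-fold and 6.28-fold. Top2a was at 0.754 and 0.0514 CPM in GRf/f mice and at 1.70 and 0.344 CPM in GRmKO mice. It fell 4.94-fold in GRmKO mice, and in GRf/f mice the CORT level rested on 1 count (log2 ratio -3.87, interval -9.27 to -1.17). For both genes the vehicle-treated GRmKO library was the highest and the CORT-treated GRf/f library the lowest.

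Of mitotic entry, Ccnb2 fell in both genotypes, from 0.958 to 0.363 CPM (2.64-fold) and from 0.798 to 0.246 CPM (3.25-fold). Ccna2, at 0.88 and 0.575 CPM in GRf/f mice, fell in GRmKO mice from 1.94 to 0.752 CPM (2.58-fold), and Foxm1, at 0.653 and 0.36 CPM in GRf/f mice, fell there from 1.00 to 0.344 CPM (2.91-fold). Cdk1 was at 0, 0.155, 0.688 and 0 CPM and Ccnb1 at 0, 0, 0.118 and 0.0494 CPM, both below the filter. Aurka fell 2.37-fold with CORT in GRf/f mice, from 6.95 to 2.94 CPM, and was at 11.4 and 9.67 CPM in GRmKO mice. Among kinesins, Kif11 rose in GRf/f mice from 0.552 to 1.23 CPM (2.23-fold) and was at 1.15 and 0.542 CPM in GRmKO mice, and Kif23 fell in GRmKO mice from 1.31 to 0.443 CPM (2.95-fold) and was at 0.855 and 1.08 CPM in GRf/f mice. Nusap1 had the highest ratio in GRmKO mice of the members that passed the filter, with 0.639 and 0.958 CPM (log2 ratio 0.58, -0.48 to 1.73), after 1.02 and 0.68 CPM in GRf/f mice.

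Of the replication genes, Mcm6, a helicase subunit, was at 3.70 and 3.37 CPM in GRf/f mice and fell in GRmKO mice from 7.41 to 3.55 CPM (2.08-fold). Rrm2 was at 1.16 and 1.29 CPM in GRf/f mice and fell in GRmKO mice from 2.75 to 0.885 CPM (3.11-fold). Both genes had their highest level in the vehicle-treated GRmKO library, while the other 3 libraries lay close together. Pcna was at 18.8, 22.8, 27.5 and 25.4 CPM, Mcm2 at 8.85, 6.69, 9.56 and 7.08 CPM and Tyms at 5.92, 10.6, 6.04 and 4.75 CPM in the 4 libraries, and none was called with CORT. Tyms and Pcna had intervals above 0 with CORT in GRf/f mice, at log2 ratios of 0.84 (0.51 to 1.19) and 0.28 (0.08 to 0.48). Mcm2 and Rrm1, the latter at 31.4 and 26.9 CPM, had intervals below 0 in the same comparison.

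**Figure D4:**
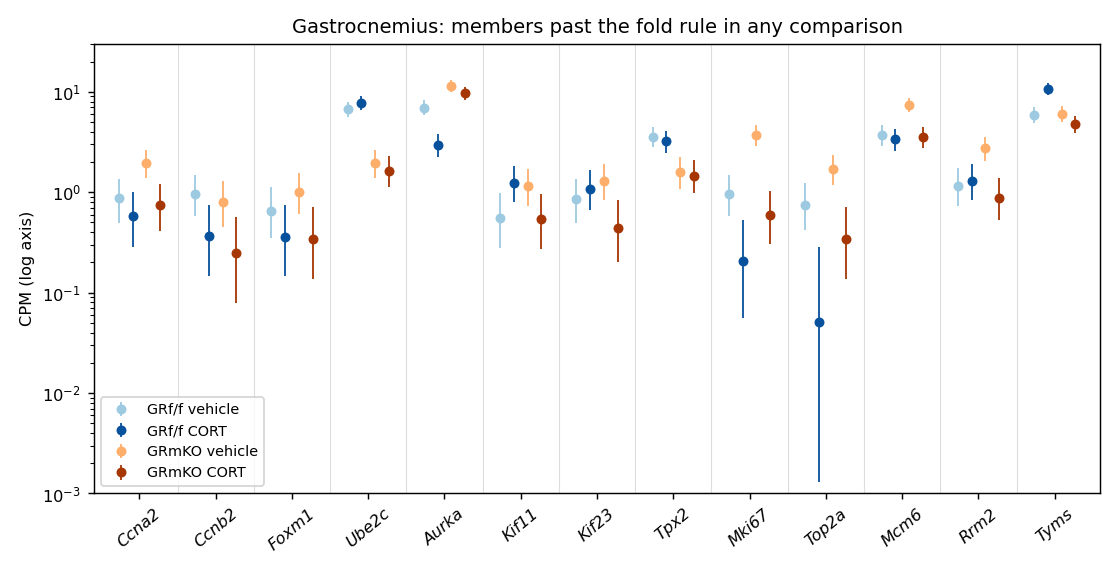
CPM (log axis) in the 4 gastrocnemius libraries of the 13 members that passed the fold rule in at least 1 comparison, with exact 95% Poisson intervals. Mki67, Top2a, Mcm6 and Rrm2 were highest in the vehicle-treated GRmKO library, while Ube2c and Tpx2 were lower in both GRmKO libraries than in both GRf/f libraries.

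Between genotypes, 5 members were called higher and 2 lower in GRmKO than in GRf/f gastrocnemius under vehicle, against 8.54% and 5.41% of all entries. The higher ones were Mki67 (3.89-fold), Rrm2 (2.37-fold), Top2a (2.26-fold), Ccna2 (2.21-fold) and Mcm6 (2-fold). Under CORT 1 was called higher, Aurka (3.29-fold), and 5 lower, namely Ube2c, Kif11, Kif23, Tpx2 and Tyms, against 7.94% and 8.25% of all entries. Of the members that passed the filter, the largest ratio under CORT was that of Top2a, a log2 ratio of 2.74 that rested on 1 count in GRf/f mice and was not called. NOISeq called 0 members in either comparison, against 3.3% and 3.78% of entries.

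Ube2c and Tpx2 were lower in GRmKO mice under both treatments. Ube2c, the ubiquitin-conjugating enzyme of APC/C, was at 6.69 and 7.80 CPM in vehicle- and CORT-treated GRf/f mice and at 1.95 and 1.63 CPM in GRmKO mice, 3.43-fold and 4.77-fold lower. Tpx2 was at 3.57 and 3.21 CPM in GRf/f and at 1.59 and 1.45 CPM in GRmKO mice, 2.24-fold and 2.21-fold lower. The Tpx2 entry of gastrocnemius names another transcript than those of liver and WAT. The Ube2c entry of gastrocnemius is uncertain. It names a transcript of 2191 bases that is not the one named in liver and WAT, 592 of those bases (27.0%) lie over exons of Tnnc2 on the opposite strand, and Tnnc2, the troponin C of fast fibres, stood at 6940, 5060, 7600 and 7920 CPM. Whether reads were counted by strand is not given in the sources used here. Without Ube2c the mitosis sum was higher in GRmKO than in GRf/f gastrocnemius under vehicle by 0.51 on the log2 scale (0.33 to 0.69) and under CORT by 0.41 (0.18 to 0.64), against 0.21 (0.05 to 0.38) and -0.10 (-0.30 to 0.10) with it. Without Aurka, which was higher in GRmKO mice, the same ratios were 0.01 (-0.19 to 0.20) and -0.82 (-1.07 to -0.57), so the ratio between genotypes under CORT turned on these 2 genes.

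The vehicle-treated GRmKO gastrocnemius also stood apart in markers of other cells. Macrophage markers summed to 237 CPM there, against 84.2 and 81.4 CPM in GRf/f mice and 83.9 CPM in CORT-treated GRmKO mice. All 7 were higher than in vehicle-treated GRf/f mice and 5 passed the fold rule, while Clec4f, at 0 and 0.1 CPM, was below the floor. The 5 fibroblast and preadipocyte markers summed to 1100, 441, 1690 and 640 CPM in the 4 libraries, and the 5 satellite cell and myoblast markers to 71.8, 88.6, 114 and 82.6 CPM. The 5 endothelial markers summed to 311, 265, 341 and 226 CPM. The fibroblast and endothelial sums were lower with CORT in both genotypes, as the mitosis sum was. Of the 5 endothelial markers, however, 2 were higher with CORT in GRf/f and 1 in GRmKO mice. The 5 adipocyte markers summed to 230, 496, 330 and 424 CPM, higher with CORT for 4 of 5 in each genotype. The sum of the 5 myofibre markers was 103000, 86800, 69300 and 87200 CPM, lowest in the vehicle-treated GRmKO library. The part of any of these in the result was not tested. The hepatocyte markers given above were highest in the CORT-treated GRmKO library, in which the mitosis sum was lowest.

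In liver the mitosis members were near the limit of the depth and the members' sum turned on 1 gene. The sum of the 35 was 68.6 CPM with vehicle and 87.5 with CORT in GRf/f mice (log2 ratio 0.35, 0.25 to 0.45) and 77.6 and 84.8 CPM in GRmKO mice (0.13, 0.03 to 0.23). The 24 mitosis members summed to 12.4, 12.1, 11.4 and 13.7 CPM, with log2 ratios for CORT of -0.04 (-0.29 to 0.22) in GRf/f and 0.27 (0.01 to 0.52) in GRmKO mice. Over the 6 mitosis members with 1 annotated protein-coding transcript these ratios were -0.78 (-1.37 to -0.19) and -0.32 (-0.92 to 0.27), so the direction of the liver mitosis sum in GRmKO mice depended on the members in it. The 3 genes of deoxynucleotide supply summed to 15.6 and 37.6 CPM in GRf/f mice (1.27, 1.08 to 1.45) and to 21.9 and 25.7 CPM in GRmKO mice (0.23, 0.05 to 0.41), while the replication fork sum was 40.5, 37.7, 44.3 and 45.4 CPM.

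Rrm2 carried this difference. It was at 3.39 CPM with vehicle and 20.3 with CORT in GRf/f mice, a rise of 6.00-fold (log2 ratio 2.58, 2.22 to 2.97), and at 4.85 and 11.4 CPM in GRmKO mice, a rise of 2.36-fold (1.24, 0.90 to 1.59). Both CORT libraries lay above both vehicle libraries, and Rrm2 took 23.3% of the members' counts in the CORT-treated GRf/f library. In that comparison it was the 1 member called by NOISeq, against 4.99% of entries. Its partner subunit Rrm1 was at 4.62, 4.68, 6.07 and 7.30 CPM. Tyms was at 7.63 and 12.6 CPM in GRf/f mice and at 11 and 6.99 CPM in GRmKO mice, with log2 ratios of 0.72 (0.43 to 1.02) and -0.66 (-0.97 to -0.35). Pcna was at 20.9, 19.9, 25.4 and 24.5 CPM and Mcm2 at 2.01, 1.61, 1.26 and 2.11 CPM, so neither shared the difference seen for Rrm2. Without Rrm2 the log2 ratio of the sum for CORT was 0.04 in GRf/f and 0.01 in GRmKO mice.

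**Figure D5:**
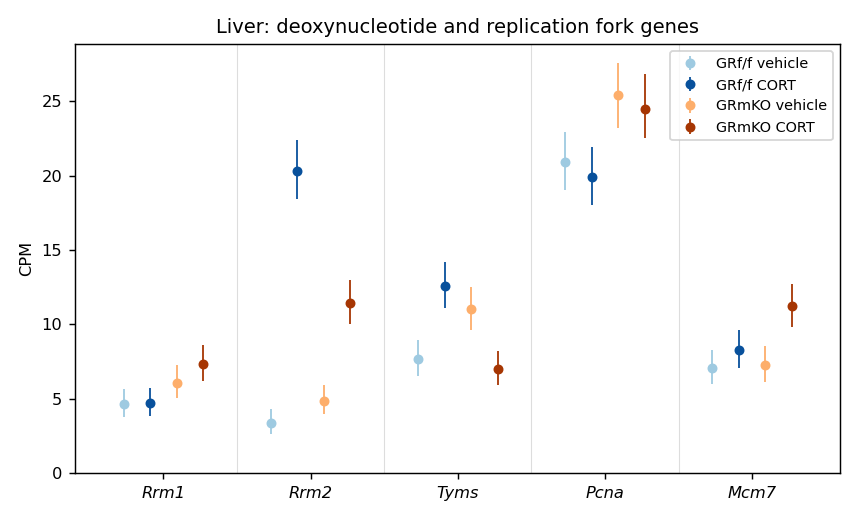
CPM in the 4 liver libraries of the genes of deoxynucleotide supply and of 2 replication fork genes, with exact 95% Poisson intervals; the axis starts at 0. Rrm2 stood at 20.3 CPM in CORT-treated GRf/f and 11.4 in CORT-treated GRmKO mice, above 3.39 and 4.85 CPM with vehicle, while Rrm1 and Pcna showed no such step.

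Of the 35 members 21 passed the filter in liver, 10 of them mitosis members. With CORT in GRf/f mice 1 rose and 4 fell, against 8.81% and 9.71% of all entries. The 4 were Top2a (0.86 to 0.146 CPM, 5.88-fold, on 3 counts with CORT, interval of the log2 ratio -4.96 to -0.78), Mki67 (0.86 to 0.341 CPM, 2.52-fold), Birc5 (0.907 to 0.366 CPM, 2.48-fold) and Mcm3, a helicase subunit (3.30 to 1.51 CPM, 2.18-fold). In GRmKO mice Rrm2 and Birc5 rose and Top2a and Mcm5 fell, against 5.75% and 5.62%, and NOISeq called 0 members, against 2.33%. Birc5 was at 0.177 and 0.805 CPM there, Top2a at 0.874 and 0.336 CPM, Mki67 at 0.34 and 0.784 CPM, and the helicase subunit Mcm5 at 1.16 and 0.375 CPM, after 0.943 and 1.27 CPM in GRf/f mice. Apart from Mcm3, these levels rested on 3 to 26 counts in a library. Cdk1 was at 0.707, 0.635, 1.04 and 1.49 CPM, Ccna2 at 0.68, 0.987, 0.644 and 0.828 CPM, Ccnb1 at 0.286, 0.22, 0 and 0.192 CPM and Foxm1 at 0.0774, 0.195, 0.194 and 0.164 CPM.

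Between genotypes in liver, Birc5 (5.13-fold) and Mki67 (2.53-fold) were called lower in GRmKO mice under vehicle and none higher, against 3.21% and 3.84% of all entries. Of the members that passed the filter, Mcm4 had the largest ratio upward under vehicle, at a log2 ratio of 0.58, with 2.72 and 4.08 CPM. Under CORT Cdk1 was called higher (2.35-fold) and Mcm5 lower (3.38-fold), against 5.83% and 4.56%. NOISeq called 0 members in either, against 0.569% and 1.4% of entries. In liver the macrophage markers summed to 205 and 71.4 CPM in GRf/f and 165 and 108 CPM in GRmKO mice, lower with CORT in both, and the 5 B cell and plasma cell markers to 3.20, 0.635, 3.39 and 0.578 CPM. Their part in the lower Mki67, Top2a and Birc5 of GRf/f mice was not tested.

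A list of 118 other cell cycle genes was read beside the members. In WAT 112 of them passed the filter, of which 14 were called higher and 4 lower with CORT in GRf/f mice, against 7.64% and 11.9% of all entries, and 20 higher and 5 lower in GRmKO mice, against 5.81% and 9.19%. Of its 56 other mitotic genes 53 passed and had a median log2 ratio of 0.34 in GRf/f and 0.70 in GRmKO mice, against 0.58 and 1.00 for the mitosis members. Of 28 other replication genes 27 passed, with medians of -0.07 and 0.20. The other mitotic genes thus stood above the median of all entries in both genotypes. In gastrocnemius 75 of the 118 passed, and 6 were called higher and 8 lower with CORT in GRf/f mice, against 5.47% and 8.45% of all entries, and 2 and 10 in GRmKO mice, against 3.21% and 8.8%. In liver 73 passed, with 6 higher and 13 lower in GRf/f mice, against 8.81% and 9.71%, and 12 and 6 in GRmKO mice, against 5.75% and 5.62%. Several of these counts lay near the shares over all entries.

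Among the regulators of the first phase of the cycle, Cdkn1a, the CDK inhibitor p21 and a known target of the glucocorticoid receptor, was at 27.1 and 345 CPM in vehicle- and CORT-treated GRf/f WAT and at 34.4 and 301 CPM in GRmKO WAT, and rose 12.7-fold and 8.76-fold. In liver it was at 1.12 and 41.0 CPM in GRf/f mice (36.7-fold) and at 4.38 and 10.1 CPM in GRmKO mice. In gastrocnemius it rose in GRf/f mice from 37.3 to 188 CPM (5.05-fold) and was at 37.5 and 44.6 CPM in GRmKO mice, and it was 4.22-fold lower in GRmKO than in GRf/f mice under CORT. Ccnd1 (cyclin D1) was lower with CORT in each pair of libraries, with 13.6 and 3.99 CPM in GRf/f and 19.6 and 3.15 CPM in GRmKO gastrocnemius, 17 and 2.85 CPM and 22.4 and 6.75 CPM in liver, and 35.9 and 19.1 CPM and 32.0 and 22.2 CPM in WAT. Of the Ccnd1 transcript, 29.4% lies over exons of LTO1 on the opposite strand. E2f7, a repressor of the E2F family, was at 0.191 and 5.21 CPM in GRf/f and at 0.0971 and 1.39 CPM in GRmKO liver, while in WAT it was at 2.37, 1.70, 2.05 and 0.677 CPM. In WAT, p21 and the mitosis members were both higher with CORT.

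Among the called genes of the other list that stood above 0 in both libraries compared, the kinetochore gene Nuf2 rose with CORT in WAT of GRmKO mice from 0.464 to 2.27 CPM (4.90-fold), and in GRf/f mice the MuvB subunit Lin9 fell from 4.41 to 1.57 CPM (2.82-fold). Fbxo5, an inhibitor of APC/C, fell in GRmKO mice from 2.08 to 0.643 CPM (3.23-fold). Of the Ccne2 (cyclin E2) transcript of gastrocnemius, 20.3% lies over exons of Ints8 on the opposite strand. In gastrocnemius of GRf/f mice Ccne2 fell from 4.37 to 1.22 CPM (3.59-fold), and Cit, a kinase of cytokinesis, from 1.46 to 0.308 CPM (4.72-fold). E2f8, the relative of E2f7, rose there from 0.302 to 1.39 CPM (4.61-fold). Several larger called ratios with CORT in WAT had a 0 on 1 side, unlike those of Cdkn1a above. Smc2, a condensin subunit, and Ect2, an exchange factor of cytokinesis, went from 0 to 11 and 2 CPM with CORT in GRf/f mice, and in GRmKO mice Gtse1 and Kifc1 went from 1.16 and 1.15 CPM to 0 and Mcm10 from 0 to 0.89 CPM. Between genotypes under vehicle, Mad2l1, a spindle checkpoint protein, was higher in GRmKO gastrocnemius (0.497 and 2.53 CPM, 5.08-fold), as was Cenpa, the histone of centromeres (0.254 and 0.938 CPM, 3.68-fold), while Spc24, a kinetochore protein, was lower (16.0 and 5.54 CPM, 2.89-fold). In liver of GRf/f mice Mcm10, which helps to start replication, fell from 89.0 to 8.62 CPM (10.3-fold), with 60.5 and 25.7 CPM in GRmKO mice. Its direction with CORT was thus opposite to that of Rrm2. The Mcm10 values of liver are uncertain, since 89.0 CPM exceeds the 68.6 CPM of all 35 members in that library. In WAT of vehicle-treated GRf/f mice the entry was at 1.28 CPM, and what it holds in liver was not tested.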

How the data were processed

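Pooled total RNA was sequenced by the authors as 100-bp paired ends, quantified with Salmon 1.2.1 on GENCODE M20 protein-coding transcripts and imported in R 3.5.0 with length-scaled abundances; the submitters' processing notes name mm10. The authors thus deposited expected counts from Salmon, which were not scaled from library to library. Where a symbol occurred more than once, they retained the copy with the highest total. Their import step can sum transcripts to genes, yet each entry bears 1 transcript identifier; which of the 2 an entry holds is not settled, and it was read as that transcript. If so, a 0 may reflect reads assigned to another. Here CPM was computed on the library total (19394572 to 20940660 counts). Ratios carry exact 95% binomial (Clopper-Pearson) intervals on counts rounded to whole numbers. Entries with a mean of at least 10 counts in a tissue were called at 2-fold with an interval clear of 1. A 0 was replaced by a floor of 3 counts, and no fold was formed when both libraries held 3 or fewer. NOISeq (5 simulated replicates, each of 20% of the depth with a variability of 0.02, and a probability threshold of 0.9) was rewritten in Python 3.11.15 with numpy 2.4.6 and scipy 1.17.1, and scaling factors came from edgeR 4.0.16. Scripts were tested on simulated data. Intervals and floor cover counting error only, not the spread between mice or pools. Transcript lengths, exons and overlaps came from GENCODE M21, promoters from RefSeq.

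The members, the lists and the tests were chosen with earlier results of these data known. Named are Mki67, Top2a, Cdk1, Ccna2, Ccnb1, Foxm1, Pcna, Mcm2, Rrm2 and Tyms in every library, members called in a tissue, and the largest rise and fall per comparison. For the list of other cell cycle genes, the rule was up to 3 called rises and 3 falls per comparison, of which those above 0 in both libraries are described first and not all are printed; Ccnd1, Cdkn1a and E2f7 are given in every tissue, a choice made after their values were seen. Alternatives were other scalings, filters, a fold of 1.5, 0.5 CPM added and NOISeq, plus sums without Rrm2, without Ube2c, without Aurka and over the 10 members with 1 annotated protein-coding transcript, which were added after seeing the data.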

Additional observations from a re-analysis of the deposited data

Results flagged for a closer look

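For 2 members the difference between CORT and vehicle in liver had opposite signs in the 2 genotypes with both counting intervals clear of 0, and with 1 library per group the difference between genotypes was not tested over samples. Birc5 had a log2 ratio of -1.31 in GRf/f and 2.19 in GRmKO mice, a difference of 3.5, on 4 to 19 counts per library. Tyms had 0.72 in GRf/f and -0.66 in GRmKO mice, a difference of -1.38.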

How the results depend on the processing

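No paired analysis was possible because each group held 1 library. For the same reason no replicate could be left out, and the spread between mice or pools is not known. At 10 counts in a library the counting error alone approaches the 2-fold rule, so members under 1 CPM rest on the counting interval. NOISeq called 1 member in liver with CORT in GRf/f mice and 0 in each of the other 11 comparisons. Since it also weighs the absolute difference, it could hardly call members at a few CPM. With 0.5 CPM added to each value, 33 of 60 single calls were lost, and the members called were 3, 3, 2 and 3 in gastrocnemius (CORT in GRf/f, CORT in GRmKO, genotype under vehicle, genotype under CORT, in place of 5, 8, 7 and 6), 2, 1, 1 and 1 in liver (in place of 5, 4, 2 and 2), and in WAT 2, 7 and 1 for the first 3 comparisons (in place of 5, 12 and 3). With a fold of 1.5, WAT had 13, 23, 13 and 4 members called (4 in place of 1 for the genotype under CORT), and liver had 10 and 8 with CORT in GRf/f and GRmKO mice and 6 for the genotype under CORT. Without a filter the last was 4. Among entries above 0 in all 4 libraries, WAT had 0 members called for the genotype under CORT, since Prc1 was left out. TMM and median-of-ratios scaling left all 12 counts within 1.5 times and ended 2 and 3 single calls.

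The log2 ratio of the sum of the 35 in gastrocnemius was 0.05 and 0.08 with CORT in GRf/f mice under TMM and median-of-ratios scaling (from -0.03), -0.23 and -0.24 with CORT in GRmKO mice (from -0.38), and 0.18 for the genotype under vehicle under TMM (from 0.26). In WAT it was 0.32 with CORT in GRf/f and 0.40 in GRmKO mice under both scalings (from 0.24 and 0.27), and 0.17 in GRf/f mice with totals that left out the 10 most abundant entries. Without the largest member it was -0.47 in gastrocnemius with CORT in GRmKO mice and 0.35 for the genotype under vehicle, 0.50 in liver with CORT in GRf/f mice and -0.17 for the genotype under CORT, and 0.34 in WAT with CORT in GRmKO mice and -0.27 for the genotype under vehicle. Without Rrm2, liver had 0.04 with CORT in GRf/f and 0.01 in GRmKO mice, and 0.13 for the genotype under CORT. Over the 10 members with 1 annotated protein-coding transcript, gastrocnemius had -0.23 with CORT in GRmKO mice (from -0.38). Liver had -0.20 with CORT in GRf/f mice (reversed, from 0.35, and Rrm2 is not among the 10) and 0.03 in GRmKO mice (from 0.13). WAT had -0.08 for the genotype under vehicle (from -0.18). For the genotype under CORT the sign changed in gastrocnemius, to 0.11 from -0.08, and in liver, to 0.37 from -0.04. Both started from intervals that reached 0. For the mitosis members among the 10, gastrocnemius had -1.14 with CORT in GRmKO mice (from -0.70) and 0.66 for the genotype under vehicle (from 0.21). WAT kept its direction in all 4 comparisons, with 0.55 and 0.92 with CORT.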

Other observations

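Several cell cycle entries outside the 35 stood at 0 in 1 library and well above the floor in another of the same tissue. In gastrocnemius Dnmt1, the maintenance DNA methyltransferase, was at 5.87 CPM in vehicle-treated GRf/f mice, 0 in vehicle-treated GRmKO mice and 11.3 in CORT-treated GRmKO mice. In liver Tfdp1, the partner of E2F proteins, was at 15 CPM in vehicle-treated GRf/f mice, 0 in CORT-treated GRf/f mice and 7.61 in CORT-treated GRmKO mice. In WAT Smc2, a condensin subunit, was at 0 in vehicle-treated and 11 CPM in CORT-treated GRf/f mice. These 3 genes were chosen after their values were seen. Among the 35, Prc1 in WAT of vehicle-treated GRmKO mice had this form.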
